A study of Apis mellifera with 25 samples.

Results

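Single-nucleotide positions outside annotated genes that carried sequenced RNA were described in 25 adult honey bee workers (Apis mellifera). The positions were those with no gene identifier in both deposited allele tables, one for workers with active ovaries and one for workers with inactive ovaries, matched by scaffold and position. Of 84034 positions listed in both tables, 35929 lay outside annotated genes and 48105 lay in one. All 25 bees were offspring of reciprocal crosses between Africanized and European bees, held for about 18 days in queenless colonies, then sorted by dissection into 12 with active and 13 with inactive ovaries. Each library came from polyadenylated RNA of 1 bee, from an eviscerated abdomen that kept its fat body and ovaries. Titles begin with 875, 882, 888 or 894, read here as 4 crosses. The labels do not define that prefix, and each holds 3 active and 3 or 4 inactive libraries. Library numbers follow the deposited order. Each allele table gives a D and a Q count per library and position. D is taken to mean the father's allele (drone) and Q the mother's (queen), which neither labels nor headers state, so every parental direction rests on that reading. Tissue and germ cells were sequenced together, so more cells of a type and more RNA per cell cannot be told apart.

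Worker bees usually do not lay, but where the queen is lost some begin to lay, and their unfertilised eggs develop into drones. A worker inherits one genome from its mother, the queen, and one from its haploid father, and a site at which the parents differ can show which copy a read came from. RNA outside annotated genes can come from unannotated exons and untranslated ends, long noncoding RNAs, transposable elements or other repeats, and introns or genes that an annotation lacks.

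The gene table summed to between 11512171 and 34682113 counts in active libraries and between 7539840 and 37661989 in inactive ones. A median of 82.6% of the 35929 positions had at least 1 read in an active library (range 62.3% to 90.1%) and 68.2% in an inactive library (52.1% to 88.2%). The inactive replicates 6, 8 and 9, known from earlier results of these same data to stand apart in allele shares, did so here too, which is not independent support. Among clusters (defined below) with at least 30 reads in a library and balanced counts in at least 2 other libraries of the cross, D reads were 5% or less in 20 of 841, 8 of 407 and 26 of 950 clusters of these 3 bees. The shares were 2.38% (95% exact interval 1.46% to 3.65%), 1.97% (0.852% to 3.84%) and 2.74% (1.80% to 3.98%), intervals that cover counting error only. They treat clusters as independent and are too narrow where losses share a scaffold. Of the D losses, 7 in replicate 6 lay on Group4.16 and 10 in replicate 9 on Group16.5. In each of the other 22 libraries at most 7 clusters had lost D, at most 0.825%. Loss of Q overlapped, at 2.14% to 3.79% of clusters in these 3 bees and 0.584% to 3.53% in the other libraries.

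Depth outside genes was uneven. A position had a median of 187 reads over the 25 libraries (middle 50% of positions, 76 to 591), against 376 in genes (129 to 1165). The deepest position reached 53333 reads and the shallowest 20, and the deepest 1% of positions held 23.5% of the 26424331 reads outside genes. Genic positions held 70524669 reads, and 22.5% of them lay at the deepest 1%.

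Positions were joined into 12237 clusters, in which neighbours lay at most 1000 bases apart with no genic position between them. Single positions made up 6274 clusters (51.3%), while 597 clusters of at least 10 positions held 10875 positions (30.3%). The largest, on Group4.9 at 1818175 to 1835540, joined 195 positions with 30833 reads. Coordinates are those of the files, whose genome build is not given in the sources used here. Members lay on 612 scaffolds, led by Group4.9 with 1292, Group11.18 with 1137 and Group3.9 with 908, and the 10 fullest scaffolds held 22.1%. Distance could be measured to listed genic positions, which lie in 4783 genes, but not to genes without one. The nearest listed genic position was a median of 14363 bases away, 6.03% of clusters had one within 1000 bases and 60.1% had none within 10000. None of the clusters (0) had the same gene on both sides. Another 402 clusters lay on scaffolds with no listed genic position. GroupUn scaffolds, the sequences without a group number, held 4.15% of positions outside genes and 2.25% of those in genes.

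Counts repeated over distances that no single read can cover. Neighbouring positions 1000 to 5000 bases apart, each with at least 250 reads and with no genic position between, differed by a median of 2.95% over the 50 D and Q columns, and 76.7% of 2503 such pairs outside genes differed by at most 10%. In genes the median was 4.34%, and 61.8% of 4708 pairs were within 10%. Even neighbours over 5000 bases apart were within 10% in 62.2% of 548 pairs outside genes. Runs of at least 3 positions whose neighbours differed by at most 10%, called plateaus here, numbered 2023 and held 18825 positions (52.4%). Of these, 1354 plateaus spanned over 1000 bases, and in 1189 of them (87.8%) the first and the last position also differed by at most 10%. The longest plateau joined 74 positions on Group4.8 at 88224 to 330243, 242020 bases, with 1399 to 1544 reads per position. On Group6.20 at 1546522 to 1604470, 98 positions had 2551 to 2683 reads each.

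**Figure D1:**
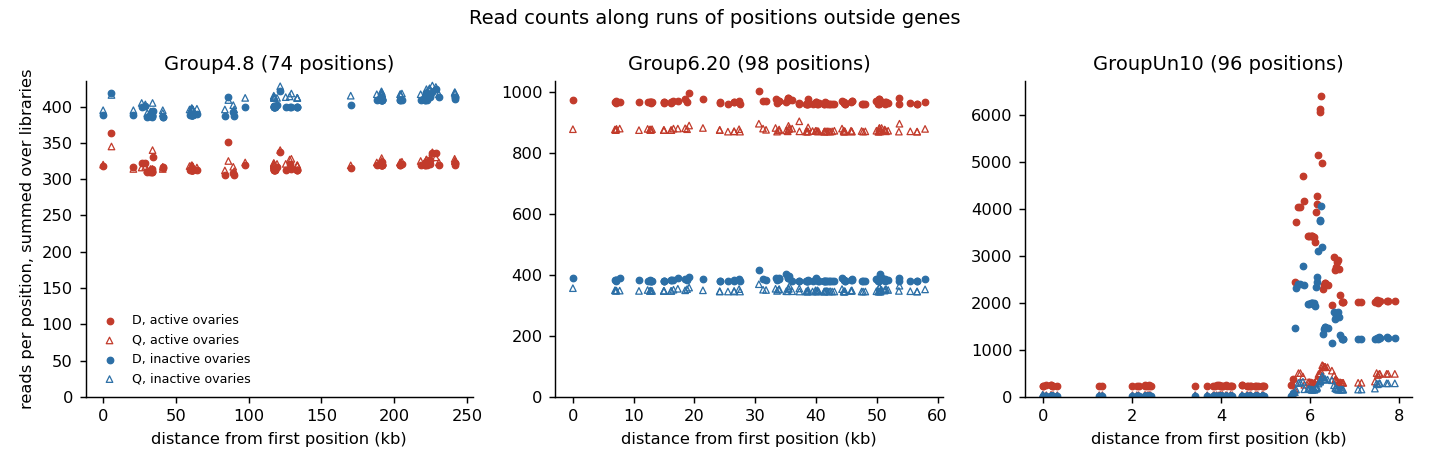
Reads per position, summed over the 12 active (red) and 13 inactive (blue) libraries, against the distance in kilobases from the first position of 3 runs of positions outside genes, with filled circles for D and open triangles for Q. The 74 positions on Group4.8 and the 98 on Group6.20 form flat lines over their whole length. Counts on GroupUn10 stay low and nearly flat up to 5576 bases, with Q above D in the inactive libraries. Beyond that they are higher, change over short distances in part, and D lies above Q in both groups.

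The clearest case was in 1 bee. On Group5.18, 58 positions outside genes from 171774 to 478150, 306377 bases apart, had 2680 reads in the active replicate 2, within 2 reads. Each had 1360 or 1361 D reads and 1320 or 1321 Q reads. These positions held 15.8% of that library's reads outside genes, and 8 positions in 3 listed genes between them had the same total. In the other 24 libraries the same positions had a median of 0 reads and at most 106. Of 3357 clusters with at least 1000 reads, 35 drew at least 90% of them from 1 library, and 34 of these were on Group5.18 in that bee. The other was on Group10.11 at 162386 to 163029, where the active replicate 1 gave 38743 of 38847 reads, 99.9% of all reads there being D. For a cluster of this size the library with most reads typically gave 12.2% (median). The counts therefore do not show that each listed position was itself transcribed at its listed depth, and neighbouring positions are not independent measurements. How the repeated counts arose was not tested.

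Near-equal D and Q went with the plateaus. The difference of D and Q, regardless of sign, was taken in each library and summed over libraries. It was under 5% of the reads at 7843 (50.2%) of 15614 positions outside genes with at least 250 reads, compared with 58.3% of such positions in genes. Within plateaus the share was 60.04%, and outside them 19.5%. With all libraries pooled, the D share of the whole plateau lay between 48% and 52% in 885 of 1354 plateaus over 1000 bases (65.4%). A position was called separating in a cross when its D and Q differed by more than such near-equal counts do, by the rule given with the processing. Separating positions made up 55.7%, 45.6%, 44.2% and 45.6% of the positions outside genes with enough reads in crosses 875, 882, 888 and 894, against 44.7%, 36.0%, 38.9% and 34.96% in genes.

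Reads outside genes were summed over positions, and 1 read may enter several, so the sum is not a part of the library. It did not pass a test of ovary status. Per 1000000 counts of the gene table the sum was 32640 to 67976 with active ovaries (median 45233) and 30169 to 75518 with inactive ovaries (median 38551), and the groups overlapped. The means were 49107 ± 11078 (SD, n = 12) and 41340 ± 11483 (SD, n = 13), a difference of 7767 that did not pass (two-sided exact permutation test within crosses, p = 0.0736). Within crosses the difference was -3020 in 875 (exact permutation p = 0.80), 9305 in 882 (exact permutation p = 0.0286, the smallest that 3 against 4 libraries allow), 20252 in 888 (p = 0.20 in the exact permutation test) and 3017 in 894 (p = 0.40 in the exact permutation test), and 3 against 3 libraries cannot go below 0.10. With library sizes scaled by TMM factors the difference was 846 (p = 0.779 in the same exact permutation test). Without cross 875 it was 10928 (p = 0.0035 in the exact permutation test).

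Set against reads at genic positions of the same allele tables, positions outside genes gave more reads with active ovaries. There were 371495 to 441532 reads outside genes per 1000000 reads at genic positions with active ovaries (median 392532) and 319932 to 399100 with inactive ovaries (median 343985). The means were 396367 ± 24233 (SD, n = 12) and 345323 ± 21450 (SD, n = 13), a difference of 51043 (exact permutation p = 3.21e-05). All active libraries lay above all inactive ones within crosses 882, 888 and 894, and in 875 the inactive replicate 3 overlapped the active bees. The active replicate 2 of cross 875, at 417166, includes the repeated counts on Group5.18. They made up 155464 of its reads outside genes (15.8%). The order within 875, the difference and its p therefore include counts that need not reflect transcription at each position. The ratio without these positions was not tested. The gene table counts every gene, whereas this ratio uses only genes that hold a listed position, so both numbers are given.

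**Figure D2:**
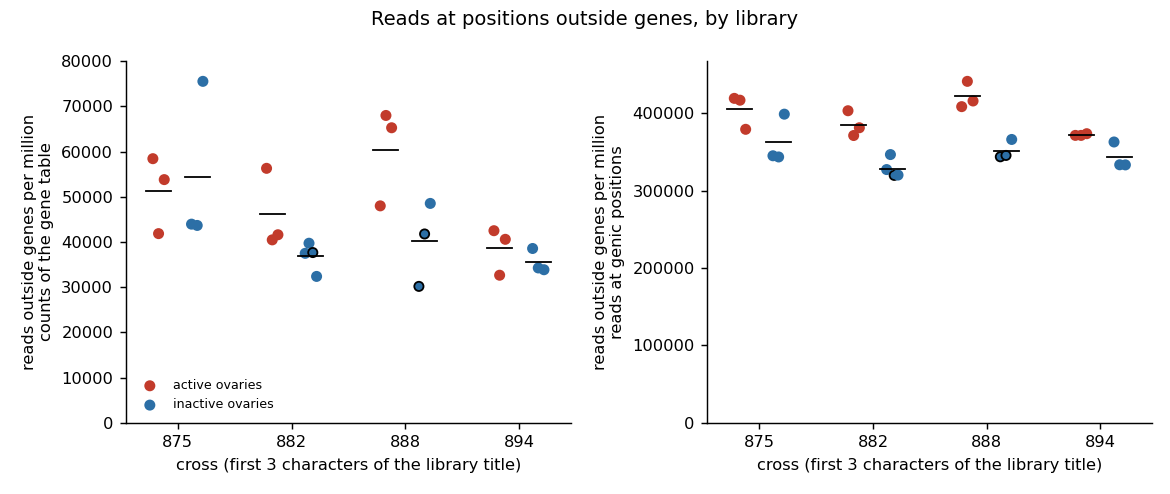
Reads at positions outside genes in each library, by cross, with active libraries (red) left of inactive ones (blue), horizontal bars for group means and black rims for inactive replicates 6, 8 and 9. The left panel counts them per 1000000 counts of the gene table, where groups overlap in 3 of 4 crosses, and the right panel per 1000000 reads at genic positions, where the groups are separate in crosses 882, 888 and 894.

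Single clusters did change with ovary status. In 1 fit over 5841 clusters and 3669 genes that passed a filter on low counts, 213 clusters were higher and 85 lower in bees with active ovaries at an adjusted p under 0.05 in edgeR's quasi-likelihood test, 5.10% of the clusters tested. Over all 9510 features 3.91% were higher and 2% lower, together 5.91%, so clusters were called about as often as the background. Another 6396 clusters did not pass the filter. With library sums not scaled by TMM, 212 clusters were higher and 19 lower, 4.02% of those tested against 4.59% of all features. The median log2 change of all features was then 0.20, against -0.01 with TMM. Under TMM, higher clusters had a median log2 change of 2.46 and lower ones of -1.14, and 148 higher against 11 lower clusters changed at least 4-fold. Called clusters lay close together: the 213 higher ones fell in 75 stretches between listed genic positions and the 85 lower ones in 50, with no stretch (0) holding both. The 10 stretches with most calls held 118 of the 213. In Group6.20, between genes GB41520 and GB41521, 24 of 35 tested clusters over 129648 bases were higher, and that stretch holds the flat run of 98 positions above. In Group7.10, between GB53799 and GB53773, 15 of 16 were higher. With each plateau as 1 unit, an alternative chosen after seeing the data, 144 units were higher and 86 lower. That was 4.77% of the units tested, against 5.77% of all features.

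The calls depended on which crosses and libraries were included. They fell to 0 higher and 0 lower without cross 882, without cross 888 or without the inactive replicates 6, 8 and 9, with 486 and 243, 489 and 191, and 632 and 400 clusters at an unadjusted p under 0.05 in the same edgeR test. Calls among genes fell to 0 there as well. Replicate 6 belongs to cross 882 and replicates 8 and 9 to cross 888, so these fits leave out some of the same bees. Each cross holds 6 or 7 of the 25 bees, so these fits also have fewer bees. The named clusters were chosen for large changes of the same direction in each cross with enough reads. Their unchanged direction in these fits was therefore favoured by the choice and adds no support. The log2 changes of the named rises were 2.28 to 2.96 without 882 (10 tested) and 2.998 to 4.44 without 888 (9 tested). Those of the 10 named falls were -2.65 to -1.86 without 882 and -2.18 to -1.93 without 888. Without cross 875, 285 clusters were higher and 103 lower, 6.91% of those tested against 7.96% of all features. Without cross 894, 242 were higher and 84 lower, 5.71% against 6.27%. No cluster (0) had groups without overlap, 0.0105% of all features. Within crosses, 50 clusters were called higher in 882, 1 in 888 and none (0) in 875 or 894. These calls were 0.995% of clusters tested in 882 and 0.0161% in 888, against 0.957% and 0.0505% of all features. In 875, 66 and 41 of 6916 clusters were higher and lower at an unadjusted p under 0.05 in edgeR's test, and in 894, 98 and 38 of 6183. The change did not pass a test of a difference between crosses for any cluster (0 of 5841 by the edgeR quasi-likelihood test, with 391 at an unadjusted p under 0.05).

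The largest rise was on Group14.5 at 513185 to 513749, 3 positions lying 2507 bases past the last listed position of gene GB48463. In counts per 1000000 of TMM-scaled gene-table counts (CPM), it had 0.353 to 118 with active ovaries (median 27.8) and 0 to 16.9 with inactive ovaries (median 0.203). All 12 active bees lay above the inactive median and 8 above every inactive bee. The log2 change was 4.19 ± 0.92 (SE; edgeR quasi-likelihood test, adjusted p = 0.0215). In cross 882 the 3 active bees had 19.1 to 38.9 CPM and all 4 inactive bees had 0. In 894 the groups overlapped, at 0.353 to 4.61 with active and 0 to 0.516 with inactive ovaries. The gene GB48463 rose too, by 1.39 on the log2 scale in the gene table (edgeR quasi-likelihood test, adjusted p = 0.00337).

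Group12.16 held 5 of the 10 named rises. That with most summed reads, 25 positions at 680479 to 685307 between GB49396 and GB49397, had 2.17 to 87.7 CPM with active ovaries (median 23.6) and 0 to 15.7 with inactive ovaries (median 0.352). Its log2 change was 3.84 ± 0.91 (SE; edgeR quasi-likelihood test, adjusted p = 0.0229), and 9 of 12 active bees lay above every inactive bee. The other 4 named clusters, within 624870 to 706364, had log2 changes of 3.40 to 3.59. D shares in the 5 clusters were 60.1% to 61.9%. In the stretch of 140949 bases between both genes, 12 of 27 tested clusters were higher.

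On Group16.1, 5 positions at 290160 to 290776 lay 801 bases from a listed position of gene GB40294. They had 2.28 to 41.1 CPM with active ovaries (median 10.8) and 0 to 7.01 with inactive ovaries (median 0.675). The log2 change was 3.48 ± 0.74 (SE; edgeR quasi-likelihood test, adjusted p = 0.0215), next to a rise of 2.41 for GB40294 itself (adjusted p = 0.00115 in edgeR's test of the gene table). A second cluster at 292143 to 292292 changed by 3.57. The remaining named rises were on Group11.18 at 2189997 to 2191313, where a cluster of 29 positions changed by 3.52 while the genes on either side had log2 changes of -0.40 (GB45029, adjusted p = 0.0469) and -0.17 (GB45028, adjusted p = 0.675) in edgeR's test of the gene table, and on Group5.18 at 166715 to 166860. That last cluster had 299 CPM in the active replicate 2, the bee with repeated counts on this scaffold, and 0.0350 to 3.81 in the other 11 active bees, with 0 to 7.34 in inactive bees.

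Over all 10 named rises, active and inactive bees did not overlap in crosses 882 and 888 in any of the 10 clusters, and overlapped in 9 of 10 in both 875 and 894. Separation was favoured by the choice, since the clusters were named for large changes in these same counts. Several of the named rises share a scaffold, and no share of all features within a cross is given. The inactive replicates 6, 8 and 9 belong to crosses 882 and 888. Without them the log2 changes of the 10 named rises were 2.93 to 3.70, with adjusted p of 0.103 to 0.14 in the edgeR test.

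The 10 named falls had 344 to 1875 reads each, against 946 to 14117 for the 10 named rises. On Group16.8, a single position at 944353 had 0 to 2.48 CPM with active ovaries (median 0.338) and 0.580 to 9.97 with inactive ovaries (median 1.77). It changed by -2.57 ± 0.71 on the log2 scale (SE; edgeR quasi-likelihood test, adjusted p = 0.0399). Clusters at 947182 and at 953683 to 953756 changed by -2.54 and -2.58, and the single positions 944353 and 947182 had 932 and 939 reads in all. Of the listed genes on either side, GB45986 fell by 1.32 on the log2 scale in the gene table (edgeR quasi-likelihood test, adjusted p = 0.00209) and GB45982 rose by 1.11 (adjusted p = 0.000704 in the same edgeR test).

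Group4.13 gave 6 of the 10 named falls, all within 1898331 to 1938828, between GB44016 and GB44205. At 1936748 to 1938828, 6 positions had 0 to 3.03 CPM with active ovaries (median 0.552) and 0.10 to 7.78 with inactive ovaries (median 3.11). The log2 change was -2.13 ± 0.63 (SE; edgeR quasi-likelihood test, adjusted p = 0.0471), and the 6 clusters ranged from -2.28 to -2.13. Neither flanking gene passed the test. On Group2.19 at 2627813 to 2628299, 3 positions had 0 to 4.69 CPM with active ovaries (median 0.833) and 0.300 to 7.98 with inactive ovaries (median 2.90), a log2 change of -2.21. Active and inactive bees did not overlap in 9 of the 10 named falls in cross 875, 0 in 882, 5 in 888 and 2 in 894. These falls too were chosen for large changes in the same counts, and 6 of them lie on Group4.13. No share of all features within a cross is given.

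**Figure D3:**
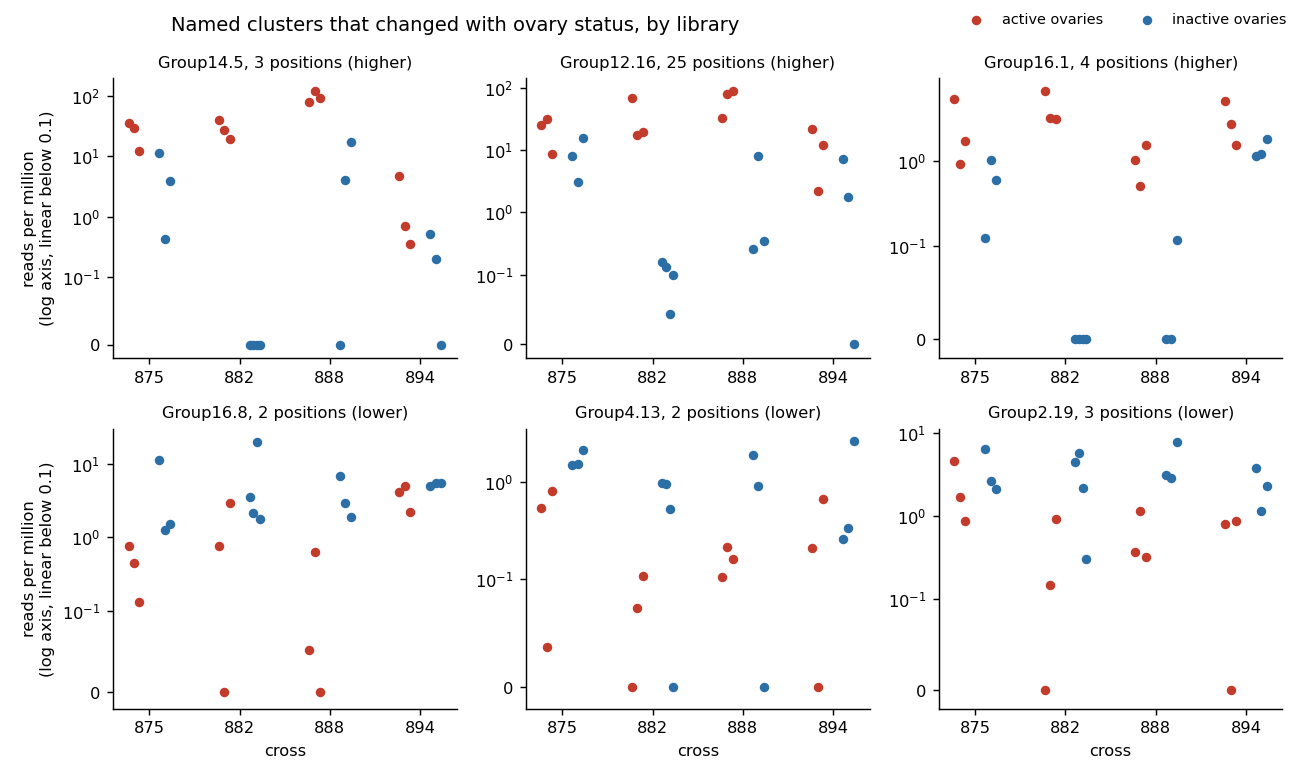
CPM in each library for 3 named clusters that were higher (top) and 3 that were lower (bottom) with active ovaries, by cross, with active bees (red) left of inactive bees (blue), on a log axis that is linear below 0.1. On Group14.5 all 4 inactive bees of cross 882 had 0, while in cross 894 the groups overlapped.

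Some called clusters changed together with the nearest gene. The nearest gene had a test of its own gene-wide counts for 294 called clusters. That gene passed in the same direction as the cluster for 117 and in the opposite direction for 31. Among clusters with a mean of 10 reads, called or not, the nearest gene passed for 24.2%, and of all genes 21.3% passed. Called clusters often share a stretch, so the same gene can be counted more than once. Whether called clusters exceed that background was not tested. The median Spearman correlation with the gene of the nearest listed genic position over the 25 libraries, given as a description without a test, was 0.51 for 760 clusters under 2000 bases from it, 0.41 for 1765 clusters at 2000 to 10000 bases, 0.33 for 2414 at 10000 to 50000 and 0.26 for 602 beyond. Points of 1 library share its depth.

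Among the 10 deepest clusters, ranked by reads summed over their positions, 0 passed the test of ovary status (edgeR quasi-likelihood test). Of these 10, 1 had an unadjusted p under 0.05. Where counts repeat along a cluster, such sums and their CPM grow with the number of positions. The largest sum, 529023 reads, was that of 12 positions on Group15.5 at 465591 to 466728, of which the deepest had 44088. The cluster lay 1051 bases from a listed position of gene GB46226. It had 444 to 1384 CPM with active ovaries (median 839) and 385 to 1445 with inactive ovaries (median 957), and the log2 change was -0.34 ± 0.21 (SE; edgeR quasi-likelihood test, adjusted p = 0.314). Group16.2 at 1525540 to 1528417 summed to 453637 reads over 11 positions, with 41721 at the deepest. It varied most between bees, with 2.20 to 1769 CPM with active ovaries (median 787) and 16.7 to 1811 with inactive ovaries (median 235). All 6 bees of cross 875 were low there, at 2.20 to 134 CPM, and the 19 bees of the other crosses had 151 to 1811. On GroupUn10 at 36374 to 44275, 96 positions had 421 to 938 CPM with active ovaries (median 484) and 174 to 819 with inactive ovaries (median 419), a log2 change of 0.45 ± 0.17 that missed the threshold (SE; edgeR quasi-likelihood test, adjusted p = 0.098). The other 7 of the 10 deepest clusters had log2 changes of -0.53 to 0.19 and adjusted p of 0.248 to 0.752 in the same edgeR test. Among them, Group11.18 at 2281562 to 2281678 summed to 194808 reads over 4 positions, with 48731 at the deepest. Neighbouring clusters on Group10.26 had 30538 and 30464 reads at their deepest positions, and both changed by -0.42.

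Outside genes D exceeded Q in every bee. The D share was 51.7% to 56.0% with active ovaries (median 53.4%) and 52.1% to 59.5% with inactive ovaries (median 53.7%). The means of 53.6% ± 1.39 (SD, n = 12) and 54.0% ± 1.88 (SD, n = 13) differed by -0.404 percentage points (exact permutation within crosses, p = 0.588). Its sign turned under 3 alternative settings, with values of 0.211 to 0.504 points.

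Compared with genic positions of the same bee, positions outside genes had a higher D share in 25 of 25 libraries, 53.8% ± 1.64 against 51.7% ± 0.850 (SD, n = 25). The mean difference of 2.12 points passed a sign-flip permutation test (two-sided, p = 1e-05, the smallest that 100000 resamples can give). Sign flips treat bees as independent, but bees of 1 cross would share parents and so parental alleles. All sign-flip p-values given here, also within crosses, therefore describe these bees and do not extend to other parents. It was 2.39 points in cross 875, 2.24 in 882, 2.32 in 888 and 1.51 in 894, each with all bees in the same direction and the smallest p that exact sign flips allow (0.0313 for 6 bees, 0.0156 for 7). Counting each position equally, in those with at least 10 reads in the library, the difference was 0.797 points and 22 of 25 bees showed it (p = 2e-05 by the same permutation test).

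Much of that excess lay on GroupUn scaffolds. They held 5.56% of the reads outside genes but 875851 of the 1805863 reads by which D exceeded Q (48.5%). The D share outside genes on GroupUn scaffolds was 75.2% to 83.8% with active ovaries (median 80.6%) and 58.6% to 90.1% with inactive ovaries (median 81.3%). At genic positions of GroupUn scaffolds it was 51.0% to 73.6% with active ovaries and 50.8% to 86.2% with inactive ovaries. On scaffolds named by a group number, D shares were 52.003% ± 1.18 outside genes and 51.3% ± 0.665 in genes (SD, n = 25). The difference there was 0.654 points, present in 19 of 25 bees (two-sided sign-flip permutation test, p = 0.001), an alternative chosen after seeing the data. The 3 bees that stand apart gave the lowest and the 2 highest D shares on GroupUn scaffolds, 58.6% in inactive replicate 9, 89.9% in replicate 8 and 90.1% in replicate 6.

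**Figure D4:**
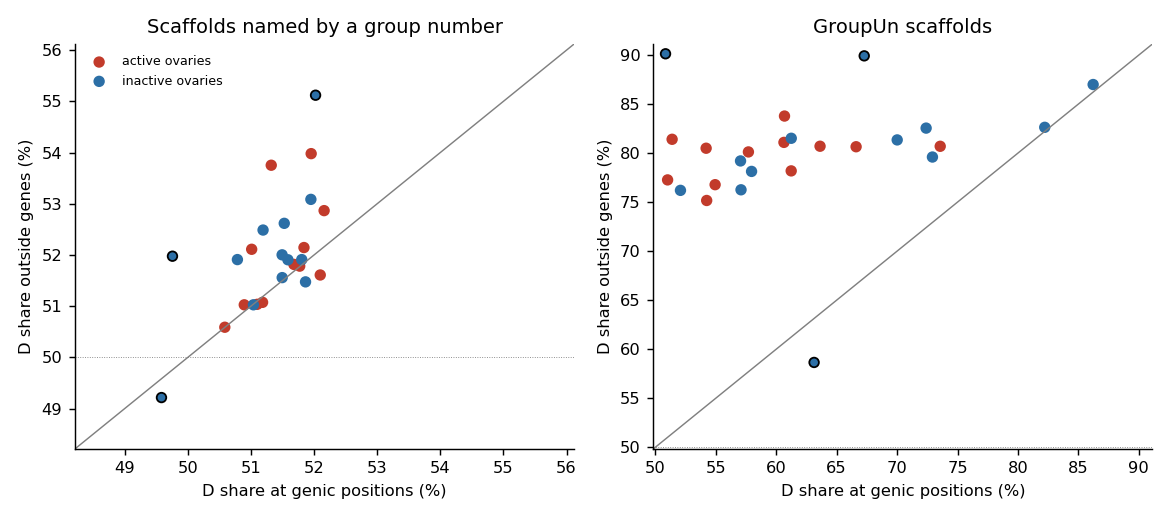
D share outside genes against D share at genic positions in each library, for scaffolds named by a group number (left) and GroupUn scaffolds (right), with active bees in red, inactive bees in blue, black rims for inactive replicates 6, 8 and 9, and a grey line where both shares are equal. On GroupUn scaffolds most bees sit near 80% outside genes, while on the other scaffolds points lie within a few points of the line.

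A small number of clusters carried most of the excess. The 20 with the largest D minus Q held 6.67% of the reads and 59.0% of the net excess, and 12 of them were on GroupUn scaffolds. First came GroupUn10 at 36374 to 44275, with 287036 reads and a D share of 88.0%, then GroupUn262 at 16968 to 18632, with 194392 reads and 92.6%. Across all clusters, D was the larger count in 7866 and Q in 4002. The median position with at least 100 reads was at 50% D in each cross, to the nearest percent. Positions with at least 95% D outnumbered those with at least 95% Q, 279 to 75 of 12813 positions in cross 875, 183 to 40 of 10199 in 882, 199 to 35 of 12699 in 888 and 195 to 35 of 10619 in 894. Genic positions had the same imbalance, 278 to 79 of 24768 in 875, 163 to 50 of 20486 in 882, 298 to 67 of 23465 in 888 and 257 to 48 of 21512 in 894.

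Parental ratios were tested per cluster at separating positions. More D was called in 451 clusters and more Q in 173 of 3680 tested in cross 875, 208 and 71 of 2308 in 882, 190 and 76 of 2787 in 888, and 392 and 112 of 2611 in 894 (edgeR's quasi-likelihood fit, blocked by library, at an adjusted p under 0.05). Over clusters and genes together 12.9%, 9.95%, 8.73% and 17.5% of features had more D in these crosses, and 4.56%, 3.83%, 2.75% and 4.36% had more Q. The D calls among clusters were 12.3%, 9.01%, 6.82% and 15.01%, near or under that background. Because separating positions were kept for unequal counts, these numbers favour larger ratios either way.

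Clusters were not all tested in every cross. Of 1061 clusters called in at least 1 cross, 687 were called in exactly 1 and 76 in all 4, 56 of these towards D and 16 towards Q in each. Opposite directions in different crosses were found in 57 of the 374 clusters called in at least 2 crosses. Recurrence and reversal were not counted over all features, so they cannot be called particular to positions outside genes. The ratio differed between crosses in 226 of 828 clusters tested for that (27.3%; edgeR quasi-likelihood test), while 29.8% of all features passed the same test.

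With the ratio averaged over the 4 crosses, 371 clusters had more D and 107 more Q of 1034 tested (edgeR quasi-likelihood test, adjusted p under 0.05). The background over all features was 40.4% for D and 9.31% for Q. Among the D calls 232 had a D share above 50% in every cross and 116 above 60%. Among the Q calls 63 were below 50% in every cross and 35 below 40%.

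The D calls with the smallest p were almost wholly D in every bee. Group15.14 at 85009 to 85118, 30404 bases from a listed position of gene GB50540, had 37109 D and 12 Q reads at separating positions, and the D share lay between 99.6% and 100% in all 25 libraries. On Group8.14 at 153403 to 153472, 30919 of 31268 reads were D, 97.3% to 99.7% per library. GroupUn205 at 5706 to 5883 had 46025 D reads of 46118, and GroupUn2182 at 195 had 30208 of 30301. GroupUn179 at 7978 to 9099 joined 24 positions with 22279 D reads of 22480, 98.4% to 99.6% per library. On Group13.3 at 39285 to 39314, 24273 bases from a listed position of gene GB54754, all 2226 reads in cross 875 and all 1988 in cross 894 were D. For Q these counts of 0 allow a share of up to 0.135% and 0.151%.

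The Q calls with the smallest p were less uniform. A single position on Group5.20, at 487149 and 3015 bases from a listed position of gene GB45645, had 4424 D of 14107 reads. Its D share was 26.6% to 37.7% in all 25 libraries, and 32.9%, 27.7%, 34.8% and 30.6% in crosses 875, 882, 888 and 894. On Group7.1 the position 37566 had D shares of 25.97% and 22.6% in crosses 875 and 882, and of 4.27% and 7.52% in 888 and 894. Group4.6 at 914661 to 914677 had 0.302% D in cross 888 and 12.2% to 17.1% in the others. GroupUn2133 at 112 to 166 was nearly all Q in 3 crosses but 47.6% D in cross 882. GroupUn46 at 31887 to 31911, among the lowest D shares of 3 crosses, had 20 D of 26889 reads in 888, 22 of 6980 in 894 and 64 of 3092 in 882.

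**Figure D5:**
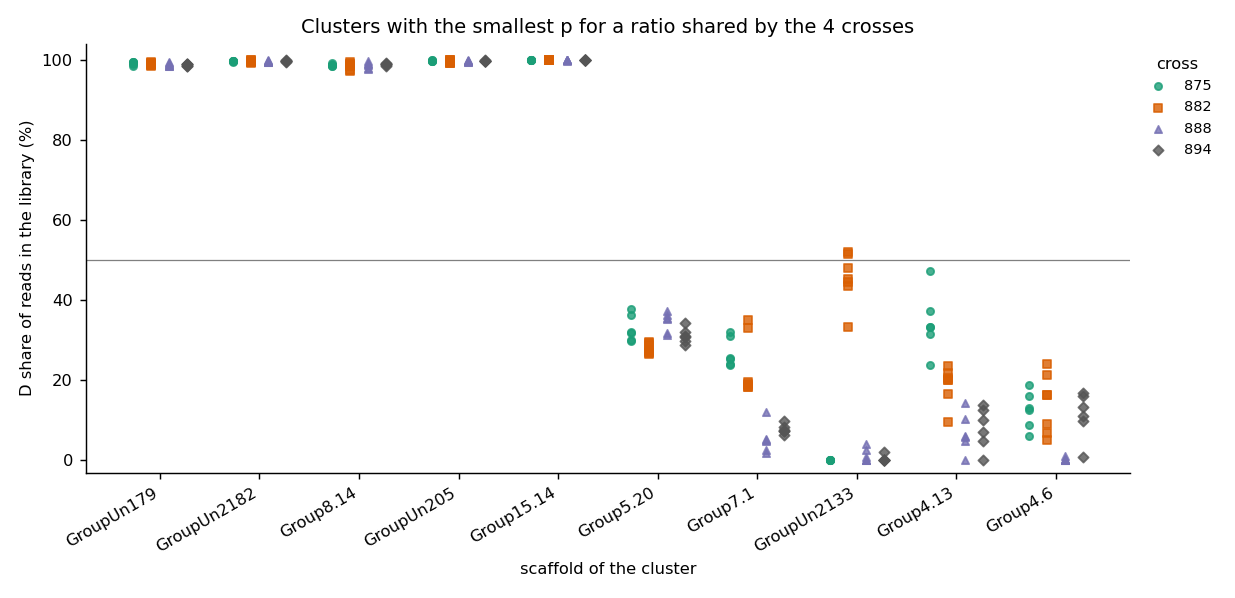
D share of reads in each library, in percent, for the 5 clusters with more D (left) and the 5 with more Q (right) that had the smallest p for a ratio shared by the crosses, with a marker shape for each cross and a grey line at 50%. The 5 D clusters stay above 97% in every library, and the Q clusters spread between crosses, with GroupUn2133 near 50% in cross 882 alone.

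A change of the parental ratio with ovary status was called in none of the clusters. Of 828 clusters tested 0 passed (edgeR quasi-likelihood test), with 33 and 27 at an unadjusted p under 0.05 for a higher and a lower D share with active ovaries. Over all features 0.104% passed. The smallest p belonged to Group3.9 at 1314614 to 1315846, where D shares with active and with inactive ovaries were 65.1% and 36.9% in cross 875, 97.9% and 51.0% in 882, 52.6% and 50% in 888, and 48.1% and 52.4% in 894 (edgeR quasi-likelihood test, adjusted p = 0.108). In 882 with active ovaries nearly all reads came from replicate 6, with 46 D and 1 Q. Leaving out the inactive replicates 6, 8 and 9 gave 8 clusters with a higher and 5 with a lower D share with active ovaries. That was 2.33% of 557 tested, against 1.30% of all features.

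Reads of one parent were sometimes lost in several clusters of 1 scaffold in single bees. On Group16.5 in cross 875, Q was lost in 17 clusters of active replicate 2, 7 of active replicate 3 and 8 of inactive replicate 3. In cross 888, the inactive replicate 9 had lost D in 10 clusters of that scaffold and Q in 10 of Group5.14. The inactive replicate 6 had lost D in 7 clusters of Group4.16 and 6 of Group14.13. These bees' reads are part of the summed D shares and ratios above, and the cause of the losses was not tested.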

How the data were processed

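The authors deposited a table of read counts per gene and, for each ovary group, a table of D and Q read counts per position and library. TopHat and edgeR are named in the submitters' processing notes. For aligner version, genome build, annotation and allele assignment, nothing is stated: not given in the sources used here. Members and lists were chosen with earlier results of these data known. None (0) of the gene identifiers matched the RefSeq gene table.

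Positions were matched by scaffold and position and joined into clusters across gaps of up to 1000 bases. Counts summed per cluster, and per gene at genic positions, were tested with edgeR 4.0.16 quasi-likelihood fits (R 4.3.3) with TMM factors, edgeR's filter on low counts, a term for cross and Benjamini-Hochberg adjustment at 0.05 over clusters and genes together. The main scaling used gene-table sums. For parental ratios, D and Q counts of a library formed a block, and a position entered only if separating, with 10 or more reads in 2 or more of the cross's libraries. A position was separating when the sum over libraries of (D − Q) squared divided by (D + Q) exceeded the 0.01 quantile of chi-square, that is, when D and Q were not closer than random sampling of equal counts gives. Plateaus joined neighbours whose 50 counts differed by at most 10%. Library shares were compared by exact permutation within crosses and paired shares by sign flips (SciPy 1.17.1, NumPy 2.4.6, pandas 2.3.3). Alternatives used DESeq2 1.42.0 and limma 3.58.1 with a pseudocount of 2. The fits were tested on simulated data.

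Named clusters were the 10 deepest (most reads summed over positions), up to 10 higher and 10 lower with the largest change (mean of 10 reads, same direction in each cross with that mean), up to 3 with the highest and lowest D share in each cross (500 reads), and up to 5 each way with the smallest p over crosses. Each library is 1 bee, so p-values compare single bees. Depth was 7539840 to 37661989 gene-table counts per library, and intervals and limits of a count of 0 (3 reads) cover counting error only, since 1 read may enter several positions.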

Additional observations from a re-analysis of the deposited data

Results flagged for a closer look

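In 32 sets of 4 to 10 libraries, each 1 cross for 1 measure, 11 had a library far from the rest, where chance flags about 1 in 20 for normally distributed values. Of these 11, 7 are clusters named for extreme D shares, whose values near 0 or 100% are not so distributed. The groups of 12 and 13 libraries were not checked this way. The D share outside genes on GroupUn scaffolds was 76.3% in inactive replicate 2 of cross 875 and 90.1% in inactive replicate 6 of cross 882. On scaffolds with a group number it was 55.1% in inactive replicate 8 of cross 888 and 52.9% in active replicate 11 of cross 894.

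In single clusters, the D share was 98.4% in active replicate 4 on GroupUn195 at 13942 to 14319, where the other bees of cross 882 were higher. It was 97.2% in inactive replicate 3 on GroupUn98 at 15700 to 16235, also below its cross. Among clusters that were nearly all Q, the outlying bee was the higher one: 1.30% D in inactive replicate 2 on Group3.15 at 11254, 1.43% in inactive replicate 3 on Group6.1 at 331680 to 331710, 1.11% in inactive replicate 6 on GroupUn213 at 12914 to 12943, 1.01% in inactive replicate 8 on Group4.6 at 914661 to 914677, and 3.41% in inactive replicate 10 on GroupUn46 at 31887 to 31911.

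The D to Q ratio differed between crosses in 226 clusters, by a test over the 4 ratios. Positions listed in the active table but not in the inactive one enter no comparison above, and there the D share of active replicate 1 was 94.5%, with a median of 53.8% over the 12 active libraries.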

How the results depend on the processing

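No paired analysis was possible because, between active and inactive bees, replicate numbers only follow the deposited order; D with Q and outside with genic positions were paired within a bee. The difference in reads outside genes passed per 1000000 reads at genic positions (51043) and without cross 875 (10928). The D share difference between active and inactive bees turned to 0.290 points with positions weighted equally, 0.211 with every position of each table and 0.504 without cross 888. Clusters higher and lower with active ovaries numbered 677 and 306 with DESeq2, 119 and 19 with no filter on low counts, 140 and 39 with no cross term, 438 and 148 with gaps of 200 bases, and 0 and 0 without cross 882, without cross 888 or without the 3 libraries that stand apart. The higher count was 338 with the deepest position of each cluster and 106 with gaps of 5000 bases, and the lower count was 19 with library sums without TMM. There the log2 change of Group11.18 at 2281562 to 2281678 turned to 0.11. With at least 30 reads, more Q was called in 115 clusters in cross 875, more D and more Q in 123 and 40 in 882, 121 and 48 in 888, 247 and 69 in 894, and 208 and 58 over the 4 crosses. With every position, more D was called in 294 in cross 875 and 651 over the crosses, and in 239 over the crosses with the stricter chi-square median rule. These settings also change how many clusters were tested over the 4 crosses. With at least 30 reads 49.3% of 540 were called, with every position 18.1% of 4354 and with the median rule 73.7% of 438. The main fit called 46.2% of 1034. Over all features the shares were 52.9%, 24.3% and 72.1%, and 49.7% in the main fit. A ratio that differed with ovary status was called towards D and towards Q in 2 and 3 clusters with every position, 2 and 4 with limma, and 8 and 5 without the 3 libraries, towards D in 1 without cross 875 and towards Q in 2 without cross 894. Of clusters tested and of all features that was 0.134% and 0.301% with every position, and 0.725% and 0.418% with limma. It was 0.103% and 0.139% without cross 875, and 0.200% and 0.224% without cross 894. Causes were not tested. Depth limits single clusters, since the median position had 6 reads per library.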

Other observations

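Positions outside genes listed in 1 table were not part of the comparisons. The 6838 of the active table had a median of 18 reads and a D share of 64.5%, above 50% in 12 of 12 libraries. In active replicate 1, D exceeded Q by 139025 reads at these positions, and 135564 of them came from 11 positions on Group10.11, among them 163337 with 19367 D and 0 Q reads. The 9924 of the inactive table had a median of 26 reads and a D share of 50.4%, above 50% in 10 of 13 libraries.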
